A study of Mus musculus with 7 samples.

Results

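The phagocyte NADPH oxidase is the enzyme complex of the respiratory burst, and 5 of its genes were followed here in eosinophils sorted from mouse muscle: Cybb, Cyba, Ncf1, Ncf4 and Rac2. They were chosen by gene symbol, as known subunits of the complex, and all 5 were found among the 24421 genes of the count table. All 5 passed the filter on low counts.

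RNA sequencing covered 7 libraries of eosinophils, 3 labelled WT and 4 labelled IL5-Tg, all from muscle 3 days after ntx, an abbreviation that the labels do not spell out. The design text describes the muscle as damaged and names an excess of eosinophils as the condition of interest. IL5-Tg mice are named for a transgene of IL-5, the cytokine that drives eosinophil production; neither its promoter and the cells that express it nor the strain, age and sex of the mice is stated. It is also not stated whether each library came from 1 mouse, so the tests weigh differences against the spread between libraries only. Cells were sorted as CD45+, SiglecF+ and CD11bing, spelled as in the labels, and negative for NK1, Ly6G and CD3e. Between 9665093 and 17447106 reads per library were assigned to genes. The label check held in every library: Il5 was at 338 to 447 CPM (reads of a gene relative to the library's total, scaled for library composition) in the IL5-Tg libraries, at 1.39 CPM in WT replicate 1 and without a read in the other 2 WT libraries.

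The complex moves electrons from NADPH in the cytosol across a membrane onto oxygen, which gives superoxide. Its membrane core is a flavocytochrome made of the catalytic subunit (Cybb, also called Nox2) and its partner (Cyba). In resting cells the core is silent, and the organiser Ncf1, Ncf4 and the GTPase Rac2 come to it from the cytosol on stimulation. Eosinophils are known for a strong burst, and their granule peroxidase, Epx, uses the hydrogen peroxide that forms from superoxide.

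The 5 genes lie on 4 chromosomes (mm10, GENCODE vM21). Cybb spans 9435252 to 9487771 on the minus strand of chromosome X, with 13 exons in its principal transcript. Cyba, the smallest, spans 122424776 to 122432930 on the minus strand of chromosome 8 with 6 exons, and the annotation places the gene model Gm20388 on the opposite strand across it. Ncf1 spans 134220053 to 134229625 on the minus strand of chromosome 5 with 11 exons, and overlaps Gtf2ird2 on the opposite strand. Ncf4 (78244801 to 78262580, plus strand, 10 exons) and Rac2 (78559167 to 78572783, minus strand, 7 exons) share chromosome 15, with 296586 bases between them. Since no source used here says whether the counting was stranded, reads from Cyba, Ncf1 and their overlapping partners may not be told apart.

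Short reads could be placed on these genes with few exceptions. None of the 42-base words of the principal transcripts of Cybb, Cyba and Ncf4, the length of the reads, occurred in a transcript of another gene. For Ncf1 6.98% of the words did, and for Rac2 3.07%. None of the shared words of Rac2 lay in Rac1, its close relative.

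RefSeq promoter sequences (GRCm38.p6) were at hand for Cybb, Cyba and Ncf1, and are shown to set side by side the start regions of the catalytic subunit, its partner and the organiser. Each window holds 100 bases before the annotated RefSeq start and the first 30 bases from it, read 5′ to 3′ on the gene's own strand. The Cybb window lies inside the GENCODE span given above, which begins at 9487771 on the minus strand. Its RefSeq start is thus not the outer end of that span. Capitals mark the 3 motifs that were searched on both strands: GAGGAA, a core bound by the myeloid factor PU.1, GGGCGG, the GC box, and CCAAT.
Cybb, chrX:9469295-9469424, minus strand: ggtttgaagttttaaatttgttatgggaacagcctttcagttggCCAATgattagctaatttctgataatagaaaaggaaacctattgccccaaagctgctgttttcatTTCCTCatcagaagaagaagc
Cyba, chr8:122432911-122433040, minus strand: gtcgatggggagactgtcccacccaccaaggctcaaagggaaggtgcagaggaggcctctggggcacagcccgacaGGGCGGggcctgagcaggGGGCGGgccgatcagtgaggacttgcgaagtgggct
Ncf1, chr5:134229596-134229725, minus strand: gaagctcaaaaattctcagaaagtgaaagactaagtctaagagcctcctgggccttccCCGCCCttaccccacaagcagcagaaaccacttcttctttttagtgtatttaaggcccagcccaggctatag

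The Cybb window held 1 CCAAT, 1 GAGGAA on the opposite strand (TTCCTC as printed) and no GC box. The GAGGAA match lay after the annotated start, from base 10 on. The Cyba window held 2 GC boxes and the Ncf1 window 1, on the opposite strand, and neither held one of the other 2 motifs. Of all 32851 promoter windows of the same 130 bases, 13.1% held GAGGAA, 27.5% GGGCGG and 21.7% CCAAT. These matches describe the letters only, since binding was not measured.

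All 5 subunit genes were among the well-expressed genes of these libraries, which also held RNA of other cells. By mean CPM over the 7 libraries Cyba ranked 47, Ncf1 63, Rac2 86, Cybb 127 and Ncf4 922 among the 24421 genes. None of the 5 passed edgeR's quasi-likelihood test between genotypes at an adjusted p of 0.05, and none had an unadjusted p under 0.05. The same test called 0.41% of the 12428 genes tested, 0.338% higher and 0.0724% lower in IL5-Tg. DESeq2 and limma-voom called 0 of the 5 as well. The groups overlapped for each of the 5, where 9.36% of tested genes had groups that did not overlap.

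Cybb, the catalytic subunit, varied most between libraries of 1 genotype. Its level was 698, 1061 and 1860 CPM in WT replicates 1, 2 and 3, and 1062, 1405, 555 and 1172 CPM in IL5-Tg replicates 1, 2, 3 and 4. The highest and the lowest library thus came from different genotypes, WT replicate 3 and IL5-Tg replicate 3, and stood 3.35-fold apart. The 3 WT libraries averaged 1206 ± 594 CPM (SD, n = 3), and the 4 IL5-Tg libraries 1048 ± 359 CPM (SD, n = 4). On the log2 scale IL5-Tg differed from WT by -0.20 ± 0.39 (SE, edgeR's adjusted p = 0.940), with a 95% interval from -1.07 to 0.67. It took the other sign when WT replicate 3 (0.27) or IL5-Tg replicate 3 (0.0054) was left out, and with the macrophage marker level as a covariate (0.17), and was not called in any of these fits.

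Cyba, which stabilises Cybb in the membrane and carries the docking site for Ncf1, was the most abundant of the 5 by mean CPM. Its levels were 1399, 2360 and 1843 CPM in the 3 WT libraries and 2318, 2452, 2128 and 1325 CPM in the 4 IL5-Tg libraries. WT replicate 1 and IL5-Tg replicate 4 were low, and the other 5 libraries lay within 1843 to 2452 CPM. WT averaged 1867 ± 481 CPM (SD, n = 3) and IL5-Tg 2056 ± 505 CPM (SD, n = 4), a log2 difference of 0.14 ± 0.30 (SE, edgeR's adjusted p = 0.945, 95% interval -0.53 to 0.81). Without WT replicate 1 it was -0.025.

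**Figure D1:**
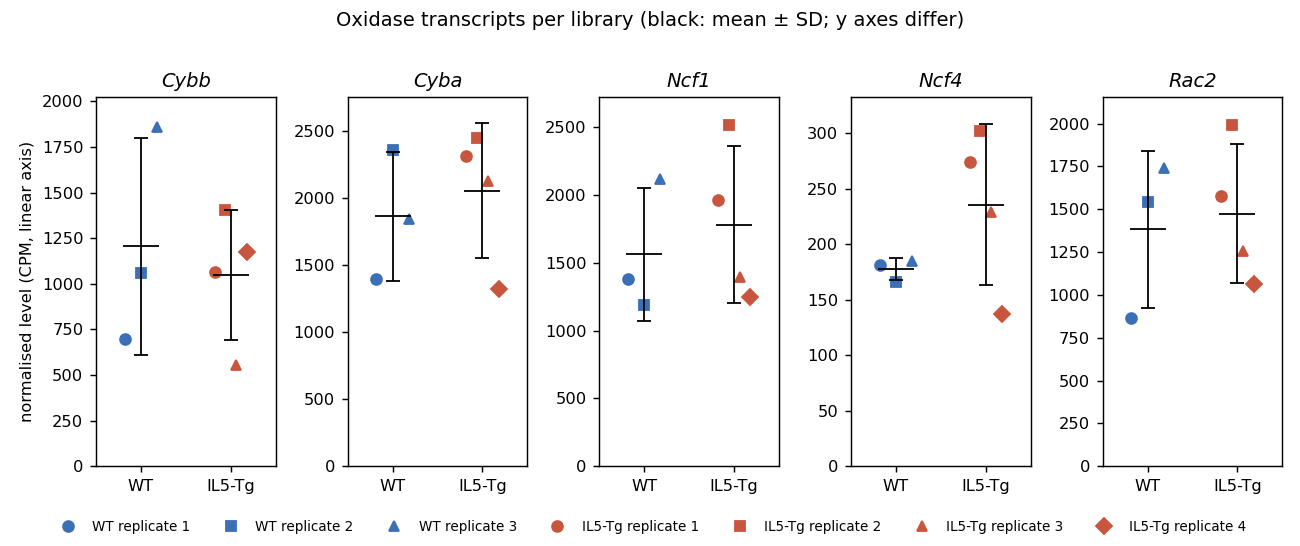
Level of each oxidase gene in every library, in CPM on linear axes that start at 0 and differ between panels. Points are libraries, black lines are the mean ± SD of 3 WT and 4 IL5-Tg libraries, and the groups overlap in all 5 panels.

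Ncf1 encodes the organiser that is phosphorylated on stimulation and then carries the cytosolic subunits to the membrane. Its level was 1380, 1186 and 2120 CPM in WT replicates 1 to 3 and 1961, 2518, 1398 and 1247 CPM in IL5-Tg replicates 1 to 4. WT replicate 3 and IL5-Tg replicates 1 and 2 were high, while the other 4 libraries lay within 1186 to 1398 CPM. Mean levels of 1562 ± 493 (SD, n = 3) and 1781 ± 579 CPM (SD, n = 4) gave a log2 difference of 0.19 ± 0.33 (SE, edgeR's adjusted p = 0.932, 95% interval -0.54 to 0.92). Without IL5-Tg replicate 2 the value was -0.024.

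Ncf4, a regulatory subunit that binds a phosphoinositide of phagosome membranes, was the least abundant by mean CPM and had the largest difference between genotypes of the 5, without passing the test. WT libraries were close together at 181, 166 and 185 CPM. IL5-Tg libraries ranged more widely, at 274, 302, 229 and 137 CPM, so that 3 lay above all WT libraries and IL5-Tg replicate 4 lay below all of them. Averages of 178 ± 10.2 CPM (SD, n = 3) in WT and 235 ± 72.3 CPM (SD, n = 4) in IL5-Tg differed by 0.41 ± 0.29 on the log2 scale (SE, edgeR's adjusted p = 0.786). The 95% interval ran from -0.23 to 1.04, and over 17 alternative settings the value ran from 0.029 to 0.59, with adjusted p from 0.478 to 0.999.

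Rac2, the GTPase of blood cells that activates the assembled enzyme, was at 863, 1543 and 1741 CPM in WT and at 1577, 1994, 1258 and 1066 CPM in IL5-Tg libraries. WT replicate 1 was the lowest of all 7 libraries and IL5-Tg replicate 2 the highest. Means of 1382 ± 460 (SD, n = 3) and 1473 ± 406 CPM (SD, n = 4) corresponded to a log2 difference of 0.092 ± 0.32 (SE, edgeR's adjusted p = 0.963, 95% interval -0.63 to 0.81). The sign was negative when WT replicate 1 (-0.15) or IL5-Tg replicate 2 (-0.093) was left out.

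The intervals, unadjusted and for single genes, give the differences that remain possible with these libraries. For Cyba, Ncf1 and Rac2 both ends lay inside a 2-fold change, the widest being Ncf1 with a fold from 0.689 to 1.89. For Cybb the interval reached down to a fold of 0.475, and for Ncf4 up to 2.06. They are not the detection limit of the adjusted test, which in simulated counts for all tested genes recovered 8% of 2-fold and 48% of 4-fold changes. The median log2 fold change of the 5 genes was 0.14, 4 values being positive and 1 negative. Over all tested genes the median was 0.026 with quartiles at -0.33 and 0.41. All 5 genes had a mean of at least 100 CPM. Over the 1960 tested genes at that level the median was -0.024, with quartiles at -0.29 and 0.23. In bulk RNA, fewer cells of a type and less RNA per cell cannot be told apart.

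**Figure D2:**
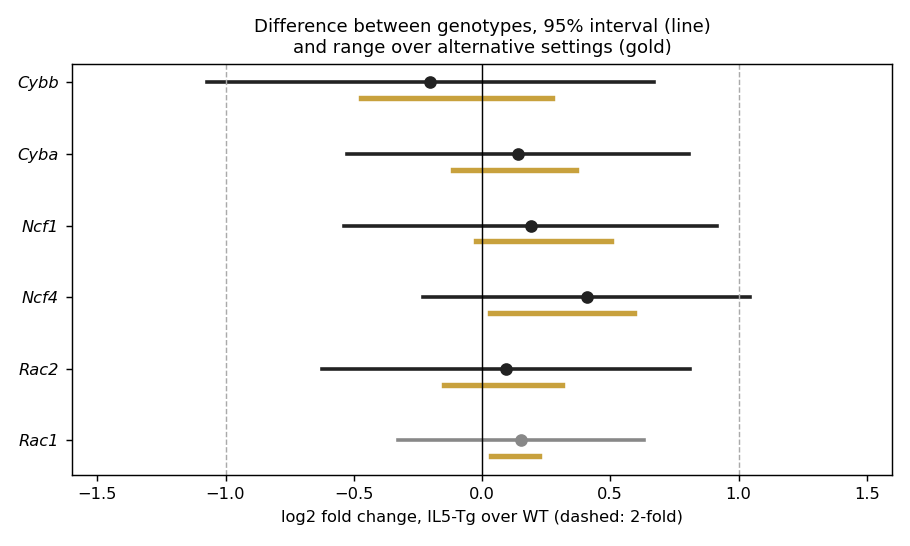
Log2 fold change of IL5-Tg over WT for the 5 subunit genes (black) and for Rac1 (grey), with the 95% interval as a line and, in gold, the range over 17 alternative settings. All intervals include 0, and those of Cybb and Ncf4 alone pass a dashed line at 2-fold, at -1.07 and 1.04.

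Some libraries were high or low for several subunits at once. IL5-Tg replicate 2 held the highest level of 4 of the 5 genes, and Cybb, highest in WT replicate 3, was the exception. In IL5-Tg replicates 1 and 2 all 5 genes stood above their mean over libraries, and in WT replicate 1 none did. IL5-Tg replicate 4 had 1 of the 5 above the mean, Cybb.

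Some pairs of subunits varied together and others did not. Over the 7 libraries, Pearson's r of log2(CPM + 1) was 0.81 for Cyba with Rac2, 0.75 for Ncf1 with Ncf4, and 0.72 both for Cyba with Ncf4 and for Ncf1 with Rac2. The 2 genes of the membrane core had an r of 0.12, and Cybb with Ncf4 of -0.014. These values rest on 7 points that share depth and cell make-up within each library, and are given as a description.

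The ratio of Cybb to Cyba within a library shows the same spread. Its values were 0.499, 0.450 and 1.01 for the WT libraries and 0.458, 0.573, 0.261 and 0.885 in the IL5-Tg libraries, so the ranges overlapped. Ncf1 to Ncf4 ran from 7.15 to 11.4 in WT and from 6.11 to 9.11 in IL5-Tg libraries, also with overlap. These are ratios of CPM, which are not scaled for gene length, and serve only to compare libraries.

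**Figure D3:**
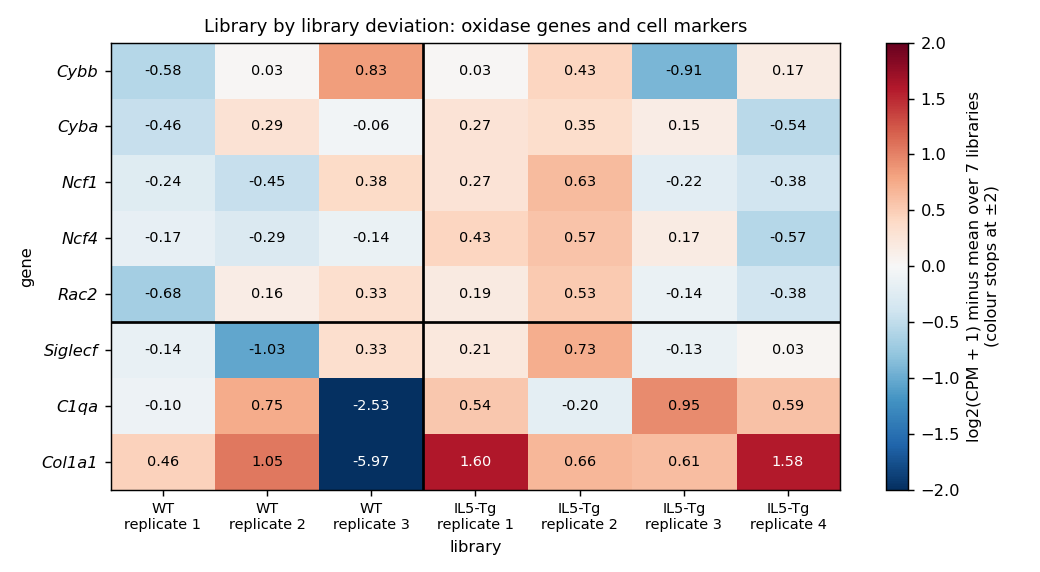
Each cell gives log2(CPM + 1) of a gene in a library minus its mean over the 7 libraries, for the 5 subunit genes above the line and for an eosinophil (Siglecf), a macrophage (C1qa) and a fibroblast (Col1a1) marker below it. In WT replicate 3, C1qa is at -2.53 and Col1a1 at -5.97 while Cybb is at 0.83.

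RNA of other cells was present and differed between libraries. Fibroblast markers summed to 16.0 CPM in WT replicate 3, against 2979 and 3322 CPM in the other WT libraries and 2012 to 4890 CPM in IL5-Tg libraries. The macrophage gene C1qa stood at 68.4 CPM in WT replicate 3, at 373 and 674 CPM in the other WT libraries, and between 350 and 776 CPM for IL5-Tg. Of the 12 macrophage and monocyte markers listed, 7 were lowest of all libraries in WT replicate 3, C1qa among them. Adgre1, which encodes F4/80 and is also known from eosinophils, was instead highest there, at 2459 CPM against 1287 to 2236 CPM, and Csf1r (785 CPM) and Lyz2 (1156 CPM) were within the range of the other libraries. Macrophages and neutrophils also carry this oxidase.

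The library with the least fibroblast and C1q RNA, WT replicate 3, had the highest Cybb level of all 7, and the highest Ncf1, Ncf4 and Rac2 levels of the 3 WT libraries. Its Ncf4 level, 185 CPM, was close to the 181 CPM of WT replicate 1. Its Cyba level, 1843 CPM, was below the 2360 CPM of WT replicate 2. Whether these levels relate to RNA of other cells was not tested. Summed macrophage and monocyte markers, of which 12 of 12 were tested and 0 called, were at 4883 to 6517 CPM in WT and 5276 to 7377 CPM in IL5-Tg libraries. Adgre1 made up 50.4% of that sum in WT replicate 3 and 21.6% to 42.4% of it in the other 6; without it WT replicate 3 was at 2424 CPM and the others at 3040 to 5787 CPM. With their mean level as a covariate, 0 of the 5 subunit genes were called. Siglecf, whose product was sorted on, was at 467, 251 and 648 CPM in WT and 597, 857, 471 and 527 CPM in IL5-Tg libraries, high in WT replicate 3 and IL5-Tg replicate 2.

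Among neutrophil markers, the calprotectin gene S100a8 stood at 157, 65.2 and 2.36 CPM in WT replicates 1 to 3, and between 5.43 and 10.8 CPM for IL5-Tg. Of 12 listed markers 11 were matched to a row and 9 were tested, 1 called higher (Ngp) and 1 lower (Retnlg). Retnlg, at -1.58 with an edgeR adjusted p of 0.0416, lost its call in 9 of 17 alternative settings, 6 of them with 1 library left out (adjusted p up to 0.272). Ngp lost its call in 1 of 16, limma-voom (adjusted p = 0.138). The neutrophil markers summed to 10250 to 13810 CPM in WT and 3333 to 5934 CPM in IL5-Tg libraries, mostly Retnlg. They did not follow each other. In WT replicate 3 Retnlg was at 9838 CPM and Mmp9 at 3932 CPM, while S100a8 and S100a9 were at 2.36 and 5.8 CPM. The sum may therefore not follow the amount of neutrophil RNA, and its part in the oxidase levels was not tested. Ly6g was not analysed here. Of the lymphocyte and NK markers Cd3e, which the sort excluded, had reads in 1 library only, at 0.281 CPM.

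Levels of different subunits can be compared per length. Divided by the union of annotated exons, the level of Cyba averaged 1797 ± 463 CPM per kb over WT (SD, n = 3) and 1979 ± 486 over IL5-Tg libraries (SD, n = 4). Rac2 stood at 445 ± 148 and 475 ± 131 CPM per kb, and Ncf1 at 426 ± 134 and 486 ± 158, close to each other with this choice of length. Cybb was at 208 ± 102 and 180 ± 61.7, and Ncf4 at 87.9 ± 5.02 and 117 ± 35.8 CPM per kb. On this scale Cyba led in all 7 libraries, and Ncf4 was last in every library except IL5-Tg replicate 3, where Cybb was lower. The order of Rac2 and Ncf1 depends on the length used. By coding length Rac2 averaged 2395 and 2554 CPM per kb in WT and IL5-Tg libraries, and Ncf1 1252 and 1428. By principal transcript length Rac2 averaged 455 and 485, and Ncf1 574 and 655.

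As shares of the 5 length-scaled levels, Cyba held 60.6% ± 7.16 of the total in WT libraries (SD, n = 3) and 61.1% ± 4.65 of it in IL5-Tg libraries (SD, n = 4). Ncf1 held 14.7% ± 4.38 and 14.9% ± 1.78, and Rac2 14.8% ± 2.15 and 14.7% ± 1.13. The catalytic subunit Cybb made up 5.44%, 5.44% and 9.63% in the WT libraries and 5.09%, 5.93%, 3.14% and 9.05% in the IL5-Tg libraries. Ncf4 made up 3.09% ± 0.856 in WT and 3.55% ± 0.344 in IL5-Tg libraries. Groups overlapped for each share. Scaled by coding length, the Cyba share was 42.1% in WT and 42.6% in IL5-Tg libraries and the Rac2 share 30.3% in both, so these shares depend on the gene model used.

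**Figure D4:**
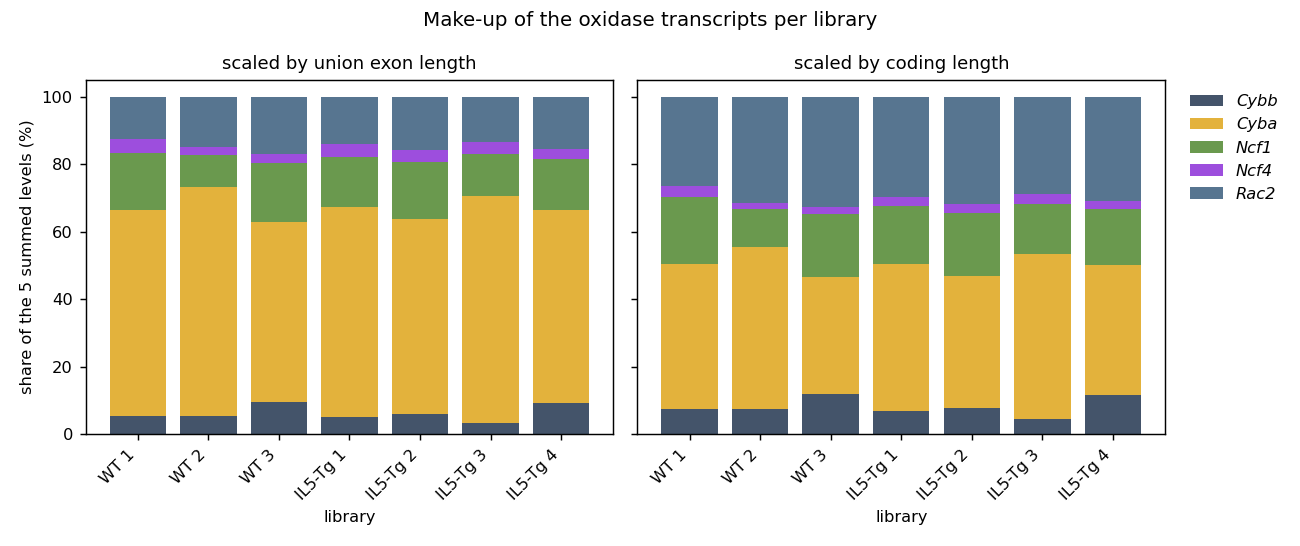
Share of each subunit gene in the summed level of the 5 genes per library, in percent, after division by the union of exons (left) or by coding length (right). Cyba takes the largest share in all 7 libraries on both scales; the bars of the 2 genotypes have overlapping shares.

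For each subunit gene the 3 most similar genes were sought among 7916 tested genes with a mean of at least 10 CPM, by Pearson's r of log2(CPM + 1) over the 7 libraries. Cybb was nearest to Irgm1 (r = 0.995), Ganc (0.977) and Trim56 (0.976). Irgm1 ranged from 21.1 to 95.6 CPM over the libraries. Cyba was nearest to Klhdc3, Ppp1r9b and Actr1a, all with r = 0.989. For Ncf1 the nearest were Neu1 (0.984), Bank1 (0.976) and Csf2rb (0.969), the shared receptor chain for IL-5, IL-3 and GM-CSF. Ncf4 was nearest to Ppil2 (0.973), Gba2 (0.972) and Cyth2 (0.968), and Rac2 to Hcls1 (0.991), Cd37 (0.989) and Tap1 (0.988). The 5 trios had no gene in common, and such values are the highest of 7916 over 7 points.

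Around the enzyme, 9 lists of related genes held 106 rows, of which 98 were tested. None was called by edgeR. Of the 98, 12 had an unadjusted p under 0.05, or 12.2% beside 9.04% of all tested genes. That share was 12.65% among the 1960 tested genes with a mean of at least 100 CPM. The median log2 fold change of the 98 was 0.073. The groups did not overlap for 10 of the 98, or 10.2%, near the 9.36% of all tested genes. Genes named below as without overlap are to be read beside that share. DESeq2 called 4 of them, Clec7a, Fpr2, Gata2 and Tlr4, and limma-voom called 0. Without WT replicate 3 edgeR called 4, Epx, Fpr2, Gata2 and Tlr4.

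Of genes for assembly and Rac regulation, 12 of 13 were matched to a row and tested, and 0 were called. Cybc1 was not matched, and whether the count table holds it under another symbol was not settled. The 12 had 5 positive and 7 negative log2 fold changes, a median of -0.15 and none with an unadjusted p under 0.05. The lowest p in the list belonged to the chaperone Hsp90aa1 (-1.06, edgeR adjusted p = 0.600) and the Rac exchange factor Tiam1 (-0.70, adjusted p = 0.610). Rac1, the broadly expressed relative of Rac2, was at 299 to 370 CPM in WT and 355 to 415 CPM in IL5-Tg libraries. The ratio of Rac2 to Rac1 ranged from 2.33 to 5.83 in WT and from 2.96 to 4.80 in IL5-Tg libraries. Of the 42-base words of Rac1, 55.2% also occurred in transcripts of Daglb, which overlaps it on the opposite strand, or Gm45522, so the Rac1 level and this ratio are uncertain.

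The kinases that phosphorylate the cytosolic subunits or act above them were at a median of 0.12, and 0 of 16 were called, 2 having an unadjusted p under 0.05. Prkcb, a protein kinase C that phosphorylates Ncf1, was at 237, 415 and 437 CPM in WT and at 203, 231, 176 and 174 CPM in IL5-Tg libraries. The 2 groups did not overlap, and the log2 difference was -0.89 ± 0.27 (SE, edgeR's adjusted p = 0.310). Pik3cd, a leukocyte phosphoinositide 3-kinase, was at 0.74 (adjusted p = 0.538).

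Receptors that trigger or prime the burst had the widest range of values, from -3.15 to 2.90, around a median of -0.0015. None of 14 was called, and 5 had an unadjusted p under 0.05. Clec7a, the beta-glucan receptor Dectin-1, was at 171, 55.9 and 91.8 CPM in WT and 33.4, 28.8, 24.0 and 44.4 CPM in IL5-Tg libraries. All IL5-Tg libraries lay below all WT libraries, at a log2 difference of -1.70 ± 0.37 (SE, edgeR's adjusted p = 0.126, and 0.00747 by DESeq2). Clec7a was called in 4 of 17 alternative settings, over which the adjusted p ran from 0.00747 to 0.661. The formyl peptide receptor Fpr2 was scarce, at 9.89 CPM on average in WT and 1.82 CPM in IL5-Tg libraries (-2.44, edgeR adjusted p = 0.231, and 0.0233 by DESeq2), and was called in 2 of 17 settings, with adjusted p from 0.0232 to 0.710. S100a8, a gene of neutrophils and monocytes, was highest in WT replicate 1, as was Fpr2, at 17.9 CPM, and its part in the Fpr2 values was not tested.

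Tlr4, the endotoxin receptor, was chosen for mention after its values were seen. It was at 8.76, 8.24 and 0.0945 CPM in WT and 25.4, 47.0, 42.0 and 56.9 CPM in IL5-Tg libraries (log2 fold change 2.90, edgeR adjusted p = 0.418, and 0.0106 by DESeq2), and was called in 4 of 16 alternatives, with adjusted p from 0.0106 to 0.920. The integrin chains Itgam and Itgb2, through which adherent cells are primed, were at 0.040 and 0.22 with adjusted p of 0.986 and 0.918 by edgeR; both were likewise picked after their values were seen.

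Other enzymes of the family had few reads or none. Of 9 genes for NOX and DUOX enzymes and their partners, 5 (Nox1, Nox3, Noxa1, Duox2 and Duoxa2) had no read in any library, and the summed level of all 9 was 2.17 to 10.03 CPM in WT and 6.15 to 9.11 CPM in IL5-Tg libraries. By a floor of 3 reads, a gene without a read could be at up to 0.156 to 0.317 CPM, depending on the library, a limit that covers counting error only, since reads are not independent molecules. Nox4, an enzyme of fibroblasts among other cells, was at 3.44 CPM in WT replicate 1, had no read in WT replicates 2 and 3, and was at 1.09 to 3.43 CPM in IL5-Tg libraries. Of the 3 tested, 0 were called and 0 had an unadjusted p under 0.05. Nox4 was at 1.03 ± 1.48 (SE; edgeR adjusted p = 0.917) and Noxo1 at -0.53 (adjusted p = 0.927). The Nox4 value rests on WT replicate 1: without it no WT library had a read and the fitted value, which is no bound, was 7.96, while it was 0.51 without WT replicate 2 and 0.49 without WT replicate 3.

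The burst needs charge compensation and NADPH. All 4 genes for compensation had positive log2 fold changes (median 0.44), 0 were called and 0 had an unadjusted p under 0.05. The proton channel Hvcn1 was at 154, 191 and 270 CPM in WT and 332, 412, 300 and 195 CPM in IL5-Tg libraries (log2 difference 0.60 ± 0.31 SE, edgeR's adjusted p = 0.650), with IL5-Tg replicate 4 inside the WT range. Lrrc8a, a volume-regulated anion channel subunit, was at 0.92 (adjusted p = 0.575). Of 13 genes for NADPH supply 9 were positive and 4 negative, the median was 0.13, and 0 were called or had an unadjusted p under 0.05. G6pdx, the entry enzyme of the pentose phosphate pathway, was at 0.55 ± 0.33 (SE; edgeR adjusted p = 0.721), and H6pd, its relative of the endoplasmic reticulum, at 0.43 (adjusted p = 0.729).

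Genes for removal of superoxide and peroxide were evenly divided, 12 positive and 12 negative, with a median of 0.0051. None of the 24 was called, and 3 had an unadjusted p under 0.05. Txnrd1, the cytosolic thioredoxin reductase, was at 386, 261 and 764 CPM in WT and 194, 219, 163 and 288 CPM in IL5-Tg libraries (log2 difference -1.12 ± 0.36 SE, edgeR's adjusted p = 0.356). The groups overlapped, since IL5-Tg replicate 4 exceeded WT replicate 2. Nfe2l2, the transcription factor of the antioxidant response, was at -0.71 (adjusted p = 0.423).

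Of the haem peroxidases Epx alone was tested. It was at 2.72, 5.60 and 15.2 CPM in WT and 21.7, 32.8, 23.8 and 15.9 CPM in IL5-Tg libraries, so the groups did not overlap. The log2 difference was 1.59 ± 0.55 (SE, edgeR's adjusted p = 0.402, from an unadjusted p under 0.05), and single libraries moved it. It was called at 2.54 without WT replicate 3 (adjusted p = 0.0229), was at 1.18 without WT replicate 1 (adjusted p = 0.460), and had an adjusted p of 0.930 without IL5-Tg replicate 1. With the macrophage covariate it was called as well (adjusted p = 0.0437), so 2 of 17 alternatives called it. Mpo had reads in 3 libraries, at up to 2.46 CPM, and Lpo had none.

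Transcription factors known for oxidase or granulocyte genes had a median of 0.32, with 8 of 11 positive, 0 called and 1 with an unadjusted p under 0.05. That 1 was Gata2, at 14.3, 16.8 and 35.4 CPM in WT and 74.96, 72.9, 58.5 and 56.3 CPM in IL5-Tg libraries. All IL5-Tg libraries lay above all WT libraries, and the log2 difference was 1.57 ± 0.35 (SE, edgeR's adjusted p = 0.126, and 0.00747 by DESeq2). Without WT replicate 3 it was called at 2.10 (edgeR adjusted p = 0.00466), whereas without WT replicate 1 it was at 1.34 (adjusted p = 0.270), and without IL5-Tg replicate 1 or 2 the adjusted p was 0.429 or 0.408. Of 17 alternatives 5 called it. Irf1, an interferon-regulated factor that acts on Cybb, was at -0.59 (adjusted p = 0.616). Spi1, which encodes PU.1, had a log2 fold change of 0.18 (adjusted p = 0.926); it falls outside the rule for named genes and was added because its core motif was searched.

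Granule genes of the same cells were looked up beside the subunit genes. In the list of eosinophil identity 3 of 10 tested genes were called higher, beside 0.338% of all tested genes. They were Ear1 (log2 fold change 3.21), Prg2 (2.76) and Ear6 (3.60), with edgeR adjusted p of 0.00311, 0.0160 and 0.0268. The granule genes Ear2 (1.79, edgeR adjusted p = 0.233) and Prg3 (0.20, adjusted p = 0.960) were not called. Ear1 was called in all 17 alternatives. Prg2 lost its call in 4, each with 1 library left out (adjusted p up to 0.120), and Ear6 in 6, namely by limma-voom (0.258) and without any one of WT replicate 2 and the 4 IL5-Tg libraries. Il5ra, the IL-5 receptor chain, and the eotaxin receptor Ccr3 had the 2 negative values of the list, -0.97 and -0.59 (edgeR adjusted p = 0.363 and 0.694). Ear1 and Ear6 belong to a family of near-identical copies, so the division of reads between them is uncertain. Whether the subunit genes differ from the granule genes in their response was not tested.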

How the data were processed

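The authors deposited raw read counts per gene symbol for the 7 libraries, without normalization, as seen from whole numbers with differing totals. Libraries were stranded, made from mRNA and read as pairs of 42 bases, per the labels' protocols. The submitters' processing notes name mm10 and the tools bcl2fastq 2.20, Bowtie and STAR, with no role. The counter, annotation and strand setting were not given in the sources used. Rows that name no gene held 9.15% to 18.2% (no feature) and 0.750% to 0.943% (ambiguous) of reads and were left out. The no-feature share was 16.5%, 15.6% and 18.2% in WT and 9.15%, 12.25%, 9.78% and 13.0% in IL5-Tg libraries. WT replicate 3 had reads for the fewest genes, 10877, against 12759 to 14391 in the other libraries. Total counts were 11581365 to 20231509. Replicate numbers follow accession order and pair nothing. Chi-square values per gene between replicates were 26.04 to 149, so each library was counted once.

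All genes were fitted with edgeR 4.0.16 (R 4.3.3; TMM, filterByExpr, robust quasi-likelihood F test, genotype as only term), with Benjamini-Hochberg adjustment over 12428 genes and a threshold of 0.05. Standard errors come from the fold change and F statistic. In simulated counts for the 12428 genes the procedure recovered 8% of genes changed 2-fold and 48% of those changed 4-fold, and 6 of 104 calls were false. Alternatives were other normalizations and filters, DESeq2 1.42.0, limma-voom (limma 3.58.1), division by the most common low count (1 to 12 reads), a macrophage covariate, a title-start block and omission of each library. That low count was 5, 8 and 12 reads in WT and 1, 1, 1 and 4 reads in IL5-Tg libraries. Both it and the no-feature share were higher in every WT library than in any IL5-Tg library. Their part in the results cannot be told apart from that of genotype. Lengths are from GENCODE vM21; use of the principal transcript length was added after seeing the data.

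The members and lists were chosen with earlier results of these data known. Genes named outside the 5 were the called genes of a list (up to 4) or its 2 with the smallest p, 3 most similar genes per member, Il5 and defining markers; exceptions are stated. List medians are descriptions. Intervals cover the spread between libraries.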

Additional observations from a re-analysis of the deposited data

Results flagged for a closer look

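Among 38 sets of 4 IL5-Tg values checked for 1 library far from the other 3, where chance gives about 5%, 5 had such a library. Within the oxidase, Ncf4 made up 3.04% of the 5 length-scaled subunit levels in IL5-Tg replicate 4, against 3.66% to 3.78% in the other 3 libraries. The Rac exchange factor Tiam1 was at 18.95 CPM in IL5-Tg replicate 3, against 10.96 to 11.2 CPM. The other 3 sets were of marker genes in IL5-Tg replicate 4: Ear1 at 49.3 CPM against 91.3 to 99.7 CPM, Ear6 at 17.7 CPM against 31.7 to 34.0 CPM, and Ngp at 33.5 CPM against 26.3 to 26.8 CPM.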

How the results depend on the processing

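None of the 5 subunit genes was called in any of 17 alternative settings, and Ncf4 alone kept its sign in all 17. Leaving out 1 library at a time gave log2 fold changes of -0.47 to 0.27 for Cybb, -0.025 to 0.37 for Cyba, -0.024 to 0.50 for Ncf1 and -0.15 to 0.31 for Rac2. Cybb was at 0.17 with the macrophage covariate and Cyba at -0.11 with the block on title starts, the other changes of sign. The scarce Cd79a was at 1.25 (limma-voom), 0.75 (covariate), 2.44 (block), 1.19 (WT replicate 3 left out) and 0.16 (IL5-Tg replicate 2 left out), with a range of -0.70 to 1.19 without 1 library, against -0.14. The count of changed genes, 51, was 224 by DESeq2, 22 by limma-voom, 100 after division by the most common low count, 100 with the covariate, and 16 to 97 without 1 library; the cause was not tested. Called genes of the pathway lists, 0 as reported, numbered 1 without a count filter, 4 by DESeq2, 3 after division by the low count, 2 with the covariate, 2 with the block and 0 to 4 without 1 library. By coding length the shares were 42.1% and 42.6% for Cyba, 30.3% and 30.3% for Rac2 in WT and IL5-Tg libraries, and 16.8% for Ncf1 and 2.73% for Ncf4 in IL5-Tg libraries; by principal transcript length Rac2 was at 11.4% and 11.3%. No paired analysis was possible because the labels give no replicate numbers. What the shared starts of titles stand for is not stated, so the block on them is not taken as a pairing. Only WT replicates 1 and 2 and IL5-Tg replicates 3 and 4 shared a start with a library of the other genotype. The genotype differences under the block therefore rest on these libraries alone. With 3 and 4 libraries, changes of 2-fold were mostly below what the test detects.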
